A study of Homo sapiens with 4 samples.

Results

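The cathepsin genes described here were CTSA, CTSB, CTSC, CTSD, CTSF, CTSH, CTSK, CTSL, CTSS and CTSZ, which were chosen by gene symbol. They made up 10 of the 15220 genes with a value in RNA-seq libraries of a human pancreatic cancer cell line and its H2A.Z knockdown clone, and their values were summed from 22 transcripts. The parental line was PANC-1, derived from a pancreatic ductal adenocarcinoma, and its cells were not transduced. The clone PZT-2 was made from PANC-1 with lentiviral short hairpin RNAs, driven by the U6 promoter, against the 3 isoforms of the histone variant H2A.Z, and was kept as a stable line. Both lines were grown in DMEM with 10% FBS, carried the passage label p12-p13, and gave 2 libraries each. PZT-2 is 1 clone, so differences between clones and the effect of the knockdown cannot be told apart, and neither can the effect of transduction itself, since cells with a scrambled hairpin are not analysed here. The labels do not say that the 2 libraries of a line came from separate cultures, although the study calls them biological replicates. The p values below measure only the spread between these libraries, which may be technical.

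Cathepsins are proteases that work mostly in the acidic lumen of lysosomes, where they degrade proteins delivered by endocytosis and autophagy. Most are cysteine proteases of the papain family, whereas cathepsin D is an aspartic protease and cathepsin A a serine carboxypeptidase. They are made as inactive precursors, most of which are tagged with mannose 6-phosphate, sorted to the lysosome and cleaved there, and in carcinomas part of them is secreted and can cut extracellular matrix. Lysosomal genes are known to share a promoter element around the letters CACGTG, to which TFEB, TFE3 and MITF can bind.

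The knockdown was seen first in the targeted genes. H2AFZ, which encodes H2A.Z.1, had normalized counts of 6389 and 6034 in PANC-1 and of 2212 and 2259 in PZT-2. Its log2 fold change was -1.47 (SE 0.0565, adjusted p = 6.27e-05). H2AFV, which encodes the H2A.Z.2 isoforms, had 3343 and 3452 against 2590 and 2719, a smaller fall by 0.36 on the log2 scale (SE 0.0569, adjusted p = 0.00574). The H2AFV call was lost without PZT-2 replicate 1 and when only its most abundant transcript was counted, where the highest adjusted p was 0.0673. Normalized counts are estimated counts scaled to a common library size, and adjusted p values come from the quasi-likelihood test of edgeR, adjusted by Benjamini-Hochberg over 15100 tested genes. A gene is called different where its adjusted p is under 0.05. Recovered library totals ranged from 12861478 to 15717574 counts. The labelled epithelial origin was visible in KRT8, KRT18 and KRT19, with KRT8 at 40963 to 41931 normalized counts in PANC-1. These keratins were all lower in PZT-2, at log2 fold changes of -1.17, -0.81 and -0.73. The epithelial markers KRT7 and EPCAM were far less abundant and were not called. KRT7 had 143 and 114 normalized counts in PANC-1 and 104 and 109 in PZT-2. EPCAM had 102 and 105 in PANC-1 and 102 and 82.1 in PZT-2.

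All 10 cathepsin genes passed the filter of at least 5 counts in at least 2 libraries. Of these, 6 were called different between the lines, where 28.4% of all tested genes were called. CTSA, CTSC, CTSS and CTSZ were higher in PZT-2, 4 of 10, against 14.7% of all genes, and CTSD and CTSH were lower, 2 of 10, against 13.7% of all genes. The libraries of the lines did not overlap for 8 of the 10, which was also the case for 66.3% of all genes. At an unadjusted p under 0.05 there were 8 of the 10, against 40.6% of all genes, and DESeq2 called 6 of the 10, against 21.3% of all genes. A fit with the replicate number as a block also called 6 of the 10, against 24.4% of all genes. The median log2 fold change over the 10 genes was 0.23, and over all tested genes it was 0.0012. The cathepsins therefore moved in both directions, with the largest rise in CTSS and the largest fall in CTSH. In RNA from whole cultures, a change in every cell and a change in the number of cells that express a gene cannot be told apart.

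The CACGTG letters are shown here because they are the best known sequence feature that lysosomal promoters share. RefSeq promoters, from 250 bases before to 50 bases after the start, were matched for 7 of the 10 genes, with CTSB, CTSK and CTSS unmatched. CACGTG, which reads the same on both strands, occurred in the promoters of CTSA, CTSD and CTSF, 3 of 7, and in 7.26% of all 35116 promoters. The longer GTCACGTG, searched on both strands and containing the shorter motif, occurred in CTSA and CTSD and in 2.40% of all promoters. The same letters followed by AC were in 0 of the 7 and in 0.353% of all. The sites in GRCh38.p14 follow, each 26 bases read along the strand of its gene, with CACGTG in capitals.
CTSD, chr11:1763959-1763984, minus strand, 44 bases before the start: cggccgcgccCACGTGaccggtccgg
CTSA, chr20:45891283-45891308, plus strand, 39 bases before the start: ggaagactgtCACGTGgcgccggagt
CTSA, chr20:45891300-45891325, plus strand, 22 bases before the start: cgccggagttCACGTGactcgtacac
CTSF, chr11:66568714-66568739, minus strand, 120 bases before the start: atataacaagCACGTGatagaggtca
CTSF, chr11:66568642-66568667, minus strand, 48 bases before the start: ctgcgcgcccCACGTGcctcctgtaa
The genes with these letters did not share a direction, since CTSA was higher in PZT-2, CTSD was lower and CTSF was not called. CTSC, CTSH, CTSL and CTSZ had no such letters in this window, which says nothing about the factors.

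Among the exopeptidases, which trim proteins from their ends, CTSC rose and CTSH fell. CTSC, a dipeptidyl peptidase that activates serine proteases of immune cells, had normalized counts of 1844 and 1955 in PANC-1 and of 3343 and 3632 in PZT-2. Both PZT-2 libraries were above both PANC-1 libraries, a 1.84-fold rise in means from 1899 ± 78.1 to 3487 ± 205 (SD, n = 2). The log2 fold change was 0.88 (SE 0.0672, adjusted p = 5.21e-04).

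CTSH is an aminopeptidase of the papain family. The study itself had named it from the same libraries, so its direction here is not independent evidence. The study also reported lower CTSH by RT-qPCR in PZT-2 and in another knockdown clone. It gave a similar result for PZT-2 against cells with a scrambled hairpin, which came from its RNA-seq values and not from RT-qPCR. CTSH had 443 and 397 normalized counts in PANC-1 and 170 and 161 in PZT-2. Both PZT-2 libraries were lower, and the mean fell from 420 ± 33.0 to 166 ± 6.30 (SD, n = 2), so that PANC-1 was 2.53-fold higher. The log2 fold change was -1.34 (SE 0.109, adjusted p = 6.18e-04). CTSC and CTSH remained called, in the same directions, in each of the 14 alternative settings.

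CTSZ, a carboxypeptidase also called cathepsin X, had 1591 and 1439 normalized counts in PANC-1 and 1933 and 2020 in PZT-2. Its rise was smaller, with non-overlapping libraries and a log2 fold change of 0.38 (SE 0.0712, adjusted p = 0.00952). The call depended on having both PZT-2 libraries. When PZT-2 replicate 1 was left out the adjusted p was 0.0546, and it was 0.0896 when PZT-2 replicate 2 was left out. CTSB, which acts both as a carboxydipeptidase and as an endopeptidase, had 4629 and 4074 normalized counts in PANC-1 and 5006 and 5004 in PZT-2. The PZT-2 libraries were above the PANC-1 libraries, but its log2 fold change of 0.20 did not pass the test (SE 0.0705, adjusted p = 0.0770). The spread of CTSB lay in PANC-1. Its log2 fold change was 0.29 without PANC-1 replicate 1 and 0.11 without PANC-1 replicate 2.

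Of CTSF, CTSK, CTSL and CTSS, papain family members that cut within a chain, CTSS was called and the other 3 were not. CTSS, which in antigen-presenting cells trims the invariant chain, had 47.3 and 43.4 normalized counts in PANC-1 and 106 and 148 in PZT-2. The PZT-2 libraries were both higher but differed from each other, with means of 45.3 ± 2.75 and 127 ± 30.2 (SD, n = 2). The 2.81-fold rise, a log2 fold change of 1.49, was called (SE 0.226, adjusted p = 0.00485). It rested on few reads, 42 and 48 estimated counts against 105 and 150. It stayed called in all 14 alternatives, with log2 fold changes from 1.01 to 1.71.

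CTSS is abundant in macrophages and CTSK in osteoclasts, so the markers of such cells were examined beside them. Of 8 macrophage and leukocyte markers, PTPRC, CSF1R, CD163 and MRC1 had no value in any library. The summed normalized counts of the list were 1628 to 1733 in PANC-1 and 1692 to 1752 in PZT-2, and most of the sum came from CD68, a lysosomal glycoprotein that was not called. CD14, a co-receptor for lipopolysaccharide, had 3 and 0 estimated counts in PANC-1 and 16 and 32 in PZT-2 and was called higher (adjusted p = 0.0235). ITGAM, an integrin of myeloid cells, had 45.0 and 42.5 normalized counts in PANC-1 and 25.2 and 37.6 in PZT-2 and was not called (adjusted p = 0.287). LYZ, or lysozyme, had 2 and 8 estimated counts in PANC-1 and 3 and 0 in PZT-2 and was not tested. Of 6 fibroblast and osteoclast markers, DCN, LUM and the osteoclast phosphatase ACP5 had no value. The sum was 581 to 625 in PANC-1 against 230 to 256 in PZT-2, most of it COL1A1 in both lines. OSCAR, also on this list, had 69 and 93 estimated counts in PANC-1 and 70 and 83 in PZT-2. PDGFRB had 8 and 11 in PANC-1 and 15 and 13 in PZT-2, and neither gene was called. The part of CD14 and of COL1A1 in the cathepsin values was not tested.

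CTSL, a broad lysosomal endopeptidase, had 614 and 607 normalized counts in PANC-1 and 555 and 613 in PZT-2. The libraries overlapped, and the log2 fold change of -0.06 did not pass the test (SE 0.0819, adjusted p = 0.607). CTSF, another lysosomal cysteine protease, had 313 and 296 in PANC-1 and 255 and 247 in PZT-2. The PZT-2 libraries lay below, but the log2 fold change of -0.28 missed the threshold (SE 0.0980, adjusted p = 0.0811), and it did so in each of the 14 alternatives as well. CTSK, the collagen-cutting protease of osteoclasts, was near the lower limit of detection, with 12, 27, 25 and 22 estimated counts in PANC-1 replicates 1 and 2 and PZT-2 replicates 1 and 2. CTSK was not called, with a log2 fold change of 0.29 (adjusted p = 0.646). Its wide SE of 0.403 leaves a modest change in either direction open.

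CTSD, the aspartic protease and the most abundant cathepsin, fell. Its normalized counts were 38876 and 34314 in PANC-1 and 25933 and 24673 in PZT-2. Both PZT-2 libraries were below both PANC-1 libraries, and the mean went from 36595 ± 3226 to 25303 ± 891 (SD, n = 2), a level 1.45-fold higher in PANC-1. The log2 fold change was -0.53 (SE 0.0652, adjusted p = 0.00230), and it was called in all 14 alternatives. Of the 31-base words in its GENCODE 29 transcript, 60.9% also occur in transcripts of AC068580.4, so reads from CTSD and from that gene could not be fully told apart.

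CTSA, the serine carboxypeptidase, also protects beta-galactosidase and the sialidase NEU1 in a lysosomal complex. It had 2429 and 2342 normalized counts in PANC-1 and 2873 and 2853 in PZT-2. The libraries did not overlap, and the log2 fold change of 0.26 was called (SE 0.0549, adjusted p = 0.0147). As for CTSZ, the call was lost when either PZT-2 library was left out (adjusted p = 0.113 and 0.111 without replicates 1 and 2). Of the 31-base words in the GENCODE model of its main transcript, 27.3% occur in transcripts of other genes. NEURL2, which shares the most of these words, 214 of 579, had no more than 8.13 normalized counts in any library. PLTP, which overlaps CTSA in the annotation, had 133 and 93.1 in PANC-1 and 73.5 and 88.0 in PZT-2. It was not called, and the part of these genes in the CTSA counts was not tested. That model of CTSA has 2149 bases and the counted transcript 3062, so sharing was not checked over its full length.

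The other members of the CTSA complex did not move together. GLB1, the beta-galactosidase, had 563 and 461 normalized counts in PANC-1 and 979 and 1000 in PZT-2. It was called higher in PZT-2 in the main fit and in all 14 alternatives, at a log2 fold change of 0.96 (SE 0.103, adjusted p = 0.00147). NEU1 had 767 and 655 normalized counts in PANC-1 and 482 and 528 in PZT-2, and its log2 fold change was -0.49 (SE 0.103, adjusted p = 0.0149). The NEU1 call was lost when either PZT-2 library was left out (adjusted p = 0.0948 and 0.0581 without replicates 1 and 2) and with its most abundant transcript alone.

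Of the 5 other human cathepsin genes, CTSE, CTSG and CTSW had no value in any of the 4 libraries. CTSV, a close relative of CTSL also called cathepsin L2, had 135 and 146 normalized counts in PANC-1 and 455 and 475 in PZT-2. Both PZT-2 libraries were higher, and its log2 fold change of 1.72 was above the estimates of the 10 genes (SE 0.102, adjusted p = 2.46e-04). Its difference from that of CTSS was not tested. Of the 1516 words of 31 bases in its GENCODE model, 17 occur in CTSL. That model has 1546 bases and the counted CTSV transcript 4542, so sharing with CTSL was not checked over its full length. CTSL itself was not called. CTSO, a little studied papain family member, had 36.0, 31.6, 39.3 and 27.7 normalized counts in PANC-1 replicates 1 and 2 and PZT-2 replicates 1 and 2, and its libraries overlapped (adjusted p = 0.986).

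Levels of different genes were compared per length, as the deposited TPM, an abundance corrected for transcript length, summed per gene. The deposited TPM carry a factor for each library and summed over all transcripts to 1000097 and 975806 in PANC-1 and to 940619 and 943632 in PZT-2, so TPM values of the lines are not on exactly 1 scale. CTSD was far above the rest, with a TPM of 2273 ± 190 in PANC-1 and 1558 ± 57.4 in PZT-2 (SD, n = 2). CTSB, CTSZ, CTSC and CTSA formed the next tier, from 101 to 146 TPM in PANC-1 and from 120 to 184 in PZT-2. CTSL, CTSH and CTSF were lower, at 50.6, 38.2 and 20.0 TPM in PANC-1, and CTSS and CTSK were at 1.41 and 1.40. In PANC-1 the libraries of neighbours in this order overlapped for CTSB and CTSZ and for CTSS and CTSK. In PZT-2 they overlapped for CTSC and CTSZ. CTSC went from rank 4 to rank 2, CTSB from rank 2 to rank 4, and CTSH fell to 14.9 TPM, below CTSF at 16.4.

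Because CTSD made up most of the cathepsin RNA, the sum followed it. The summed TPM of the 10 genes was 3028 and 2725 in PANC-1 and 2318 and 2267 in PZT-2. Without CTSD the order of the lines was the opposite, with 620 and 587 in PANC-1 and 719 and 749 in PZT-2. CTSD took 79.5% and 78.5% of the summed TPM in PANC-1 and 69.0% and 67.0% in PZT-2. Each of these sums separated the lines without overlap, but an exact two-sided permutation test of 2 against 2 libraries cannot give a p below 0.333, which was its value for both sums.

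At the level of single transcripts, no cathepsin transcript passed edgeR's adjusted threshold. The count was 0 of 22, with 8 at an unadjusted p under 0.05, while 0.148% of all 30403 tested transcripts were called and 18.5% had an unadjusted p under 0.05. DESeq2 called 7 of the 22 and 14.5% of all transcripts. CTSC was counted from 3 transcripts. NM_001814, of 1938 bases, had 1364 and 1429 normalized counts in PANC-1 and 2205 and 2486 in PZT-2. The longer NM_148170, of 6180 bases, had 475 and 528 in PANC-1 and 1098 and 1114 in PZT-2. The share of NM_148170 in the CTSC counts was 25.8% and 26.9% in PANC-1 and 32.9% and 30.8% in PZT-2, and this difference in share was not tested.

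For CTSL, 4 transcripts with counts lay behind the lack of a gene-level difference. NM_001257971 had 251 and 247 normalized counts in PANC-1 and 300.4 and 290 in PZT-2, and its libraries did not overlap. NM_145918 had 186 and 136 in PANC-1 and 67.3 and 109 in PZT-2, also without overlap but in the other direction. Neither was called (adjusted p = 0.396 and 0.363), and since these transcripts share most of their sequence, the split of reads between them is an estimate.

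The genes beside each cathepsin on its chromosome were compared, using the order of 15051 genes placed by RefSeq, with 5 tested genes on either side. CTSH on chromosome 15 fell while its 10 neighbours had a median log2 fold change of 0.24, as did the whole chromosome, and ranged from -0.18 to 0.36. CTSC on chromosome 11 rose while the median of its neighbours was -0.0016, but its value lay within their range from -0.91 to 2.35. CTSS on chromosome 1 rose and its neighbours had a median of -0.11, with 0.58 as their highest value. CTSD on chromosome 11 was at -0.53, and its neighbours ranged from -1.72 to 1.68 with a median of -0.31, where the whole chromosome had -0.05. CTSK and CTSS lie side by side on chromosome 1, and of this pair CTSS was called and CTSK was not. Among the partners of CTSA, GLB1 on chromosome 3 rose beside neighbours of which 7 of 10 were also called higher, with a median of 0.71 against 0.43 for the chromosome. NEU1 on chromosome 6 was lower while 4 of its 10 neighbours were called higher and 0 lower by edgeR, with a median of 0.37.

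Genes that act on cathepsins or beside them in the lysosome were counted from lists. Of 12 inhibitors, the cystatins and serpins that block cathepsins, 4 were tested. By edgeR 0 of these were called, where 28.4% of all genes were called, and 4 genes are few to set against that share. CST3, or cystatin C, had 1475 and 1328 normalized counts in PANC-1 and 1146 and 1221 in PZT-2. Its log2 fold change was -0.24 (adjusted p = 0.0576), and it was called lower in 4 of 14 alternatives. CSTB, the cytosolic cystatin B, was at -0.08 (adjusted p = 0.422). CST6 had no value.

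Among 13 genes of mannose 6-phosphate tagging and sorting, 4 were called higher and 1 lower, with a median log2 fold change of -0.02. That is 38.5% called, where 28.4% of all genes were called. IGF2R, the large mannose 6-phosphate receptor that carries precursors to lysosomes, had 8760 and 8104 normalized counts in PANC-1 and 12328 and 11116 in PZT-2. It rose by a log2 fold change of 0.48 (SE 0.0677, adjusted p = 0.00388). M6PR, the smaller receptor, was at 0.18 and was not called (adjusted p = 0.0814). NAGPA, which uncovers the mannose 6-phosphate tag, rose at 0.58, and AP1M1, an adaptor subunit, fell at -0.25. The NAGPA call was lost without PZT-2 replicate 1 (adjusted p = 0.0517), and that of AP1M1 without either PZT-2 library and with its most abundant transcript alone, where the highest adjusted p was 0.186.

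The remaining lysosomal lists were also mixed in direction, and their shares of called genes are to be read against the 28.4% of all genes. Of 6 tested peptidases other than cathepsins, 1 was called higher and 2 lower (50% called). LGMN, the asparaginyl endopeptidase that processes cathepsin precursors, was called higher at a log2 fold change of 0.26 (adjusted p = 0.0432), but the call was lost in 7 of 14 alternatives. TPP1, a tripeptidyl peptidase, was lower at -0.29 (adjusted p = 0.0249), and this call was lost in 3. Of 16 genes listed as lysosomal glycosidases, 4 were higher and 2 lower (37.5% called). GLB1 was the highest of those called and AGA the lowest. AGA, on this list but strictly an amidase, splits the bond between asparagine and its sugar. It had 129 and 103 normalized counts in PANC-1 and 45.3 and 21.8 in PZT-2. The AGA call was lost with its most abundant transcript alone (adjusted p = 0.0528). Of the 10 neighbours of AGA on chromosome 4, 6 were also called lower, with a median log2 fold change of -0.95 against -0.01 for the chromosome.

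Of 18 subunits and accessory proteins of the V-ATPase, the pump that acidifies lysosomes, 2 were higher and 4 lower (33.3% called). ATP6AP1 fell by 0.52 on the log2 scale (adjusted p = 0.00133) in all 14 alternatives, and ATP6V1G1 rose by 0.43 (adjusted p = 0.0135), a call lost in 2. Of 13 lysosomal membrane proteins, 4 were higher and 2 lower (46.2% called). LAMP3, an inducible lysosomal glycoprotein, had 75.4 and 19.9 normalized counts in PANC-1 and 357 and 350.1 in PZT-2, and its log2 fold change of 2.96 held over a range from 2.22 to 4.14. NPC1, the cholesterol exporter, was at -0.45 and LAMP2 at -0.30, both called lower, and both calls were lost without either PZT-2 library. LAMP1, a major membrane glycoprotein, was at 0.01 (adjusted p = 0.932).

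Of the transcription factors that bind CACGTG in lysosomal promoters, and their repressor, 4 of 5 genes were tested. By edgeR 0 of these 4 were called, where 28.4% of all genes were called. TFEB was at a log2 fold change of -0.05 (adjusted p = 0.892), TFE3 at 0.12 (adjusted p = 0.318) and MITF at 0.42 (adjusted p = 0.288). Their activity depends largely on where the protein sits in the cell, which RNA does not measure.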

How the data were processed

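RNA-seq of 2 PANC-1 and 2 PZT-2 libraries was used. The authors used Trim Galore 0.4.1 for trimming, kallisto 0.43.0 on a RefSeq index for abundances and sleuth 0.29.0 for tests. The release of that index is not given in the sources used here, and hg19 is the build in the submitters' notes. The deposited table gives estimated counts, a TPM value treated here as a score, since the deposited TPM carries a factor for each library, and lengths. The second deposited table holds the authors' own comparison, of which only the symbols were used.

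The deposited estimated counts were not on the scale of whole reads. A factor for each library, 0.935 to 1.16, was found from genes with 1 transcript and removed. Among values from 0.5 to 30, 0.815% to 2.41% were whole within 0.01 as deposited and 45.1% to 46.9% after removal. Counts were summed per gene and rounded. Of 31077 transcripts, 27049 had a symbol, 3925 were named by accession, and 103 unnamed ones (0.0466% of counts) were left out. Genes that reached 5 counts in 2 or more libraries were tested with edgeR 4.0.16 (TMM, quasi-likelihood, R 4.3.3). DESeq2 1.42.0, limma 3.58.1 on log2(TPM + 1) and log2(TPM + 0.1), and other settings were alternatives, 14 for each gene. The fits were tested on simulated data with 200 changed genes. Shared sequence was counted as 31-base words in GENCODE 29, and promoters are from RefSeq on GRCh38.p14.

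Named were all cathepsins, the H2A.Z genes, the called gene with the largest change in each direction in each list, and GLB1, NEU1, LGMN, CST3, CSTB, CST6, M6PR, IGF2R, TFEB, TFE3, MITF, LAMP1 and LAMP2. KRT7, KRT8, KRT18, KRT19, EPCAM, CD14, CD68, ITGAM, LYZ, COL1A1, OSCAR, PDGFRB, NEURL2, PLTP and AC068580.4 were named after their values were seen. Members and lists were chosen with earlier results of these data known.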

Additional observations from a re-analysis of the deposited data

How the results depend on the processing

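The median log2 fold change of the 10 cathepsin genes, 0.23, was 0.19 with limma on log2(TPM + 1), 0.22 on log2(TPM + 0.1) and 0.25 with the most abundant transcript alone, and ranged from 0.11 to 0.24 when 1 library was left out. Leaving out 1 library gave 4 to 7 called cathepsin genes, 2 to 5 of them higher, with 2 higher without PZT-2 replicate 1 or PZT-2 replicate 2. Over all genes, 4290 were called, 2132 with the most abundant transcript alone, and 1745 to 4487 with 1 library left out. Of the genes of the context lists, 27 were called, and 10 to 28 with 1 library left out. With a library left out, the lone library of its line is assumed to vary like the other line. Cathepsin transcripts called were 7 of 22 with DESeq2, where 14.5% of all transcripts were called, and 0 of 22 in edgeR, where 0.148% were. With at least 10 counts in all 4 libraries they were 4 of 16, where 1209 of all 20642 transcripts were called.

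Some log2 fold changes near 0 changed sign. With 1 library left out, CTSK ranged from -0.060 to 0.78 (below 0 without PANC-1 replicate 1) and CTSO from -0.28 to 0.22 (above 0 without PANC-1 replicate 1 or PZT-2 replicate 2). CTSL ranged from -0.14 to 0.0056 (above 0 without PZT-2 replicate 1) and was at 0.25 with its most abundant transcript alone. TFEB ranged from -0.29 to 0.25 (above 0 without PANC-1 replicate 2 or PZT-2 replicate 1). LAMP1 ranged from -0.046 to 0.053 (below 0 without the same libraries) and was at -0.0042 with limma at either pseudocount. The cause was not tested.

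Same-numbered libraries of the lines share a replicate number, and the labels do not say that they were paired. Their deviations from the group means correlated at -0.0237 over all genes tested. Whether they shared a culture day or batch was not tested. With the replicate block, 3686 genes and 6 cathepsin genes were called, and 21 context genes. Among the cathepsins, the H2A.Z genes and the named genes of the lysosomal lists, only LGMN lost its call with the block, and the marker genes were not followed in the alternatives. A recomputed TPM, added after seeing the data, put the summed cathepsin TPM of PZT-2 at 0.836 of PANC-1, against 0.797 as deposited. CTSK, CTSO and CTSS had the fewest counts of the cathepsin genes.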
